A study of Parachlorella kessleri with 6 samples.

Results

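The genes of flagella, tubulin and the microtubule motors were followed in the single-celled green alga Parachlorella kessleri, a relative of Chlorella, by RNA-seq of 3 control libraries and 3 libraries of salt-stressed cells after 2 days. No genotype, strain or salt concentration is given in the sources used here, and the groups differed, per the labels, in salt alone. The transcriptome was assembled without a genome, so each gene is a row named by a Trinity identifier and by its best protein match, and such a name does not establish function in this alga. A row was a member where its Pfam domains included Kinesin, Tubulin, Dynein_heavy, DHC_N1, DHC_N2, Dynein_light, Myosin_head or a domain of the IFT families, or where the description of its best match held a flagellar, ciliary, axonemal, dynein, kinesin, tubulin, basal body or centrin word. This gave 96 of 22972 rows. Pfam terms chose 42 of them and descriptions 80, with 26 chosen by both.

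Microtubules are hollow polymers of alpha- and beta-tubulin. Gamma-tubulin starts new ones, and kinesins and dyneins walk along them. Flagella and cilia are built on a microtubule axoneme that grows from a basal body, is bent by axonemal dynein arms and is assembled by intraflagellar transport, in which kinesin-II carries protein trains to the tip. Chlorella and its close relatives are known as non-motile algae without a described flagellate stage, although genes for flagellar proteins have been found in their genomes. The same microtubules, centrin and several kinesin families also serve the mitotic spindle and cell division.

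Of the 96 members, 81 fell into 10 roles. The other 15 were matched by another name. They included rows whose best match came from a fish of the genus Poecilia or from the sponge Sycon ciliatum, bacterial flagellin and flagellar brake proteins, a pair of L-aspartate oxidase rows with the alias FLAGELLIN-INSENSITIVE, and a subunit of mitochondrial ATP synthase. Of these 15, 11 had enough counts to be tested, and 0 rose and 5 fell. They are left out of what follows. Among the 81 members in a role, the best match in the non-redundant protein database named a green alga for 61, another organism for 16 and no organism for 4. There were 17 rows that held, beside a domain of their own family, the domain of an unrelated family on a separate predicted reading frame. Their counts cannot be divided between the genes they join, and they are called joined rows below.

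Library totals ranged from 16460455 to 24065705 counts. Of 11438 rows tested with edgeR's quasi-likelihood test, 6616 (57.8%) passed at 0.05 after Benjamini-Hochberg adjustment, 29.1% higher and 28.7% lower in salt, so that most tested rows changed. The libraries of replicate 1 stood apart from the others in both groups: control replicate 1 was the lowest control library for 43 of the 72 tested members in a role (59.7%), against 44.5% of all rows tested. The labels do not say that the replicates came from separate cultures; p-values therefore measure the spread of these samples only, which may be technical. Since whole cultures were sequenced, fewer cells of a state and less RNA per cell cannot be told apart.

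Of the 81 members in a role, 72 were tested, and 28 rose, 17 fell and 27 were not called (62.5% called, 38.9% raised and 23.6% lowered, beside the 57.8%, 29.1% and 28.7% of all rows). Their median log2 fold change was 0.21, against 0.01 for all rows tested. It was 0.16 in the replicate 1 pair and 0.27 in replicates 2 and 3. The share called was thus close to that of all rows, and the members were described by their roles. Higher in salt were the main alpha-tubulin and gamma-tubulin rows, centrin, both IFT88 rows, 2 of 3 myosins and 11 of 26 kinesins. Lower in salt were 3 of 4 axonemal dynein heavy chains, 5 kinesins and 3 rows named flagellar associated membrane protein. Both IFT88 rows may be pieces of 1 gene. Several kinesin rows in each direction are joined rows, whose values cannot be credited to the kinesin alone. The chart of changes by role shows both directions within most roles.

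**Figure D1:**
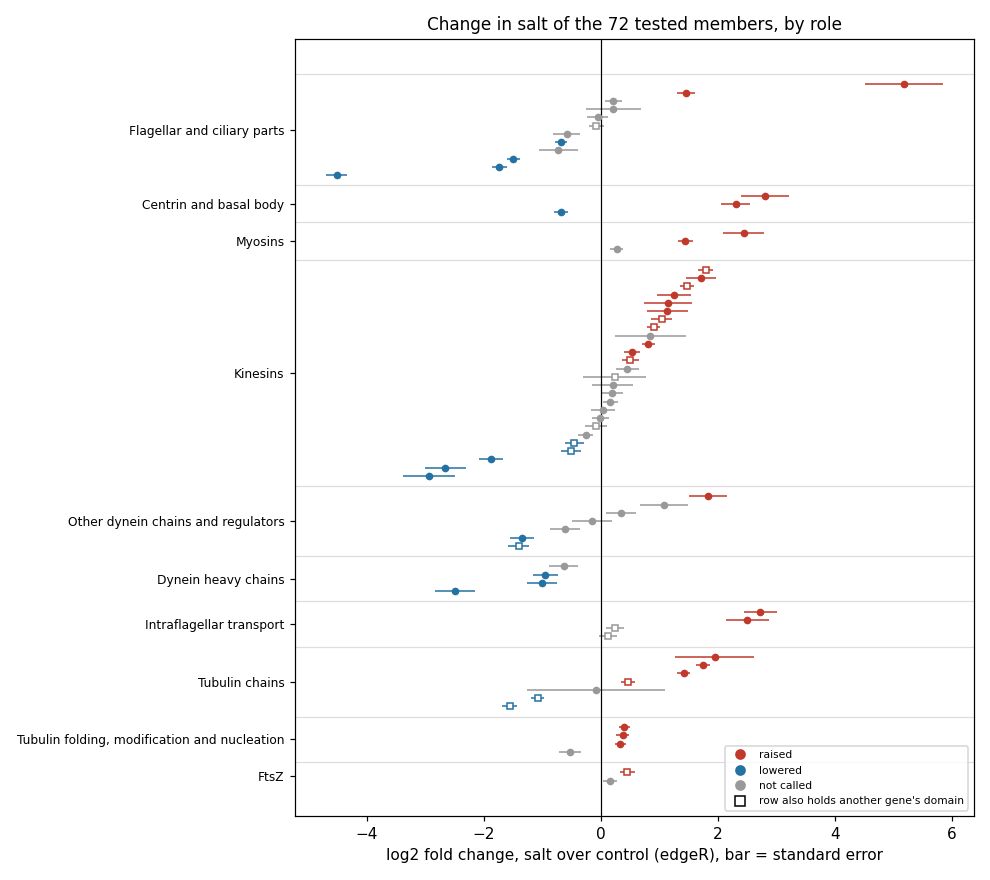
Log2 fold change in salt (x axis, edgeR, bars are standard errors) of the 72 tested members in a role, grouped by role on the y axis and coloured by call, with open squares for joined rows. The 4 dynein heavy chains lie left of 0, the 3 myosins right of 0, and the kinesins run from -2.94 to 1.79.

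Of 11 rows with tubulin chains, 7 were tested, and 4 rose, 2 fell and 1 was not called; the median log2 fold change was 0.46. Alpha-tubulin (TRINITY_DN6006_c4_g4) stood at 134, 125 and 114 CPM (scaled counts per library size, with TMM factors) in control replicates 1, 2 and 3 and at 420.1, 391 and 442 CPM in the salt replicates. All salt libraries lay above all controls, and the means were 124 ± 10.1 and 418 ± 25.5 CPM (SD, n = 3 each; log2 fold change 1.75 ± 0.12 SE, adjusted p = 6.51e-05 by edgeR). The row is short, with an effective length of 390.4 bases in control and 442.1 in salt, which is less than a tubulin coding sequence. A second alpha-tubulin piece in the same Trinity cluster (TRINITY_DN6006_c4_g3), at 1.92, 0.400 and 0.818 CPM in control and 7.08, 2.31 and 2.79 CPM in salt, was also called (1.94 ± 0.67 SE, adjusted p = 0.0425 by edgeR). Without salt replicate 1 its value was 1.28 (adjusted p = 0.144), and the call was also lost without control replicate 2 (0.103), control replicate 3 (0.123), salt replicate 2 (0.0512) or salt replicate 3 (0.0628), while without control replicate 1 the value was 2.76 (0.0131).

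Beta-tubulin (TRINITY_DN5978_c0_g2), the partner of alpha-tubulin in the dimer, rose less. It stood at 446, 443 and 410.1 CPM in control and 562, 603 and 626 CPM in salt (log2 fold change 0.46 ± 0.12 SE, adjusted p = 0.013 by edgeR). The groups did not overlap, but it is a joined row with Myb and other domains on further frames, and the call was lost without control replicate 3 (0.0647) or salt replicate 3 (0.0533). On the length-scaled FPKM of the authors, alpha-tubulin went from 292 ± 29.6 to 1003 ± 77.9 and beta-tubulin from 219 ± 17.7 to 314 ± 15.1 (mean ± SD, n = 3 each). The alpha row thus had the higher value in both groups on that scale, by more in salt. Since the alpha row is a short piece and the beta row is joined, these values do not rank the alpha and beta transcripts. The difference between the changes of both rows was not tested.

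Gamma-tubulin (TRINITY_DN93_c0_g1), the nucleator, varied little within control, at 48.6, 48.9 and 49.1 CPM in control and 116, 139 and 133 CPM in salt. It was 2.65-fold higher in salt (log2 fold change 1.41 ± 0.11 SE, adjusted p = 9.86e-05 by edgeR), it was the only row of its Trinity cluster, and its FPKM went from 27.5 ± 2.79 to 74.3 ± 5.71. The gamma-tubulin complex component GCP2 (TRINITY_DN5442_c1_g1), which helps to form the nucleating ring, did not move with it. Its values were 29.1, 45.8 and 44.7 CPM in control and 26.5, 30.03 and 26.5 CPM in salt (-0.53 ± 0.19 SE, adjusted p = 0.0514 by edgeR, 0.0455 with DESeq2 size factors and 0.0394 with the replicate block). The lowest control library overlapped the salt range, and without control replicate 1 the value was -0.70 (adjusted p = 0.00157).

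The tubulin rows that fell were joined rows. TRINITY_DN5679_c0_g3, whose KEGG name is that of epsilon-tubulin, a tubulin of basal bodies and centrioles, also holds a protein phosphatase 2C domain. It stood at 1179, 1206 and 1186 CPM in control and 436, 404 and 371 CPM in salt (log2 fold change -1.56 ± 0.13 SE, adjusted p = 0.000123 by edgeR). TRINITY_DN5250_c2_g1, named phosphoglycerate kinase with a Tubulin domain on another frame, stood at 684, 739 and 737 CPM in control and 344, 337 and 341 CPM in salt (-1.08 ± 0.11 SE, adjusted p = 0.0003). Its whole Trinity cluster, of which it held 48.7% of counts, changed by 0.48 in the other direction (adjusted p = 0.00595). For both rows the values describe joined transcripts and cannot be credited to the tubulin. The remaining tested chain, matched to a mammalian alpha-tubulin, was at 0 to 1.51 CPM and was not called.

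The tubulin folding factors rose slightly. Of 4 members that fold, modify or nucleate tubulin, 3 rose and 1, GCP2, was not called. Cofactor B (TRINITY_DN4346_c0_g3), which binds alpha-tubulin, stood at 64.0, 62.1 and 60.5 CPM in control and 80.4, 81.6 and 73.4 CPM in salt (log2 fold change 0.33 ± 0.10 SE, adjusted p = 0.0251 by edgeR). Cofactor D (TRINITY_DN5232_c1_g1), which acts on beta-tubulin, stood at 64.3, 59.9 and 53.4 CPM and at 75.6, 76.3 and 77.7 CPM (0.37 ± 0.11 SE, adjusted p = 0.0245). A row named tau-tubulin kinase 1 (TRINITY_DN5797_c2_g1), a kinase family that phosphorylates tau in mammals, stood at 58.1, 61.7 and 61.4 CPM and at 79.2, 77.3 and 83.0 CPM (0.40 ± 0.10 SE, adjusted p = 0.0107). None of the 3 overlapped between groups. The cofactor calls were lost without some single libraries: for B without control replicates 2 or 3 or salt replicates 1 or 2 (adjusted p of 0.0535 to 0.0968), and for D without control replicates 2 or 3 or salt replicates 2 or 3 (0.0603 to 0.101).

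FtsZ proteins, the bacterial relatives of tubulin that form the plastid division ring, were members through their Tubulin domain. FtsZ1 (TRINITY_DN4637_c2_g1), a joined row, stood at 124, 121 and 101 CPM in control and 174, 151 and 149 CPM in salt (log2 fold change 0.45 ± 0.13 SE, adjusted p = 0.0194 by edgeR). The groups did not overlap, and the call was lost without control replicate 3 (0.076) or salt replicate 1 (0.0542). FtsZ2 (TRINITY_DN3588_c0_g1) stood at 66.7, 60.5 and 57.3 CPM in control and 73.4, 70.03 and 62.02 CPM in salt, with overlap, and was not called (0.15 ± 0.12 SE, adjusted p = 0.297).

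**Figure D2:**
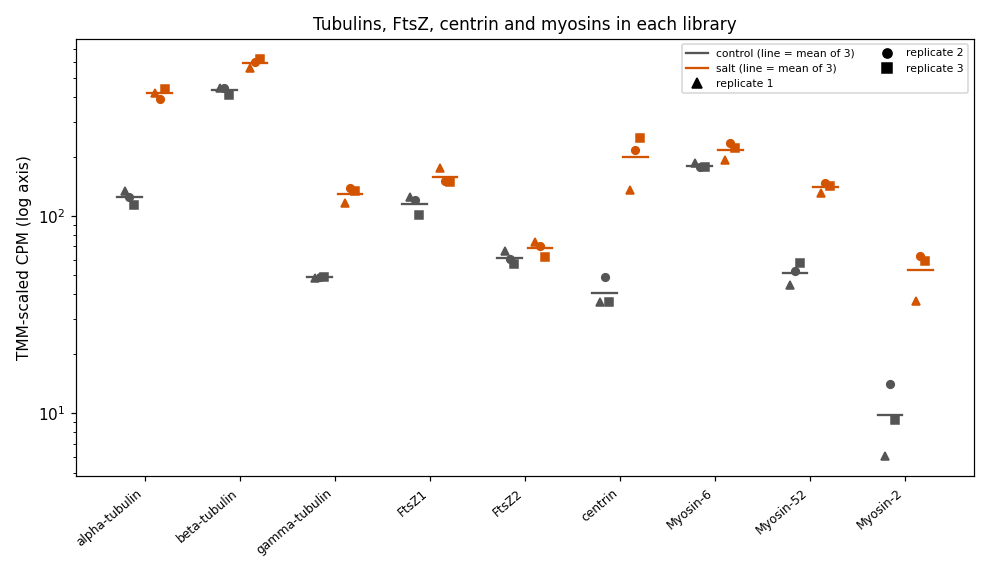
TMM-scaled CPM (y axis, log scale) of 9 tubulin, FtsZ, centrin and myosin rows (x axis) in the 3 control libraries (grey) and 3 salt libraries (orange), with lines at the means and shapes for the replicate number. Alpha-tubulin, gamma-tubulin, centrin, Myosin-52 and Myosin-2 show salt libraries well above every control library, while FtsZ2 overlaps.

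Centrin (TRINITY_DN5306_c3_g2), a calcium-binding protein of basal bodies and centrioles, was 4.91-fold higher in salt. It stood at 36.6, 48.8 and 36.7 CPM in control and 136, 216 and 248 CPM in salt (log2 fold change 2.30 ± 0.25 SE, adjusted p = 0.000338 by edgeR). The lowest salt library was salt replicate 1, still above every control. The row held 86.2% of the counts of its Trinity cluster, which changed by 1.75. A row named flagellar/basal body protein (TRINITY_DN5732_c3_g3), with the Enkurin domain of axonemal proteins, stood at 0.240, 0.450 and 0.378 CPM in control and 1.82, 2.54 and 3.22 CPM in salt (2.81 ± 0.41 SE, adjusted p = 0.00112). The third row of this role (TRINITY_DN5525_c0_g1), named basal body protein in one database and lysine histidine transporter in another and carrying an amino acid transporter domain, fell from 108 ± 11.99 to 67.5 ± 4.35 CPM (n = 3 each; -0.68 ± 0.12 SE, adjusted p = 0.00297).

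The axonemal dynein heavy chains, the motor subunits of the dynein arms, were lower in salt. Of 5 rows 4 were tested, and 0 rose, 3 fell and 1 was not called; the median log2 fold change was -0.98 (-1.03 in the replicate 1 pair and -1.02 in replicates 2 and 3). The alpha heavy chain of the inner arm I1 complex (TRINITY_DN4668_c0_g1) stood at 30.5, 72.4 and 75.0 CPM in control and 9.76, 11.4 and 10.4 CPM in salt. Control replicate 1 was well below the other controls but still above all salt libraries, and the mean was 5.64-fold lower in salt (log2 fold change -2.50 ± 0.34 SE, adjusted p = 0.000921 by edgeR). Its partner, the beta heavy chain (TRINITY_DN4646_c0_g1), stood at 39.8, 48.6 and 48.4 CPM in control and 19.1, 37.9 and 30.4 CPM in salt. The groups did not overlap, but the change was not called (-0.64 ± 0.25 SE, adjusted p = 0.0604, and 0.0157 with the replicate block).

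In the outer arm, the beta heavy chain (TRINITY_DN5726_c0_g1) stood at 27.8, 50.7 and 50.3 CPM in control and 18.0, 23.9 and 22.0 CPM in salt (log2 fold change -1.01 ± 0.25 SE, adjusted p = 0.0126 by edgeR). Without salt replicate 1 its adjusted p was 0.0504. A further heavy chain with the full set of dynein motor domains, given no name by Swissprot and the KEGG name DNAH (TRINITY_DN5657_c0_g1), stood at 91.6, 110.3 and 139.8 CPM in control and 45.3, 70.7 and 60.9 CPM in salt (-0.95 ± 0.22 SE, adjusted p = 0.00827). None of the 4 overlapped between groups. Per length they were scarce, at 5.90 to 15.2 FPKM in control and 2.31 to 7.80 FPKM in salt, against 292 FPKM for the alpha-tubulin row in control. The heavy chain not tested (TRINITY_DN7011_c0_g1) matched a mouse protein and held 3 counts in salt replicate 3 and 0 in the other libraries.

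The smaller dynein chains and the factors that assemble the arms gave no common direction. Of 7 tested, 1 rose, 2 fell and 4 were not called; the median log2 fold change was -0.15. The row named 70 kDa intermediate chain of the outer arm (KEGG DNAI2, TRINITY_DN2582_c0_g1) rose, from 2.16, 4.85 and 4.15 CPM in control to 12.1, 16.1 and 11.6 CPM in salt (1.83 ± 0.33 SE, adjusted p = 0.00303 by edgeR). The I1 intermediate chain IC138 (TRINITY_DN5926_c1_g3), which regulates that arm in Chlamydomonas, fell from 22.9, 28.8 and 26.5 CPM to 7.49, 11.995 and 11.2 CPM (-1.35 ± 0.21 SE, adjusted p = 0.00165). The IC138 row held 2.87% of the counts of its Trinity cluster, which changed by -0.39 (adjusted p = 0.183). Kintoun, a factor of dynein pre-assembly (TRINITY_DN5146_c0_g2), sits on a joined row with a protein phosphatase 2C domain that fell from 1001, 678 and 728 CPM to 288, 314 and 302 CPM (-1.41 ± 0.18 SE, adjusted p = 0.000616).

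The 4 rows of this role that were not called included light chain LC8 (TRINITY_DN2652_c0_g1), a small subunit shared by dyneins and other complexes. It stood at 12.3, 22.8 and 23.97 CPM in control and 13.4, 12.3 and 12.7 CPM in salt, so that control replicate 1 lay at the salt level (log2 fold change -0.62 ± 0.26 SE, adjusted p = 0.0785 by edgeR). Without control replicate 1 the value was -0.87 (0.00124). The assembly factor ODA7 (TRINITY_DN5255_c2_g12) stood at 4.51, 10.998 and 10.005 CPM and at 10.9, 18.0 and 24.5 CPM (1.07 ± 0.41 SE, adjusted p = 0.061, 0.00518 with the replicate block and 0.0383 without salt replicate 1). It held 5.17% of the counts of its cluster, which changed by -0.11. A row matched to a subunit of the outer arm docking complex (TRINITY_DN5882_c1_g1) carries phosphatase and HAD domains and is named phosphatase DUSP12 in Swissprot. It stood at 729, 402 and 398 CPM in control and 706, 594 and 631 CPM in salt (0.34 ± 0.26 SE, adjusted p = 0.295, and 0.69 with 0.00219 without control replicate 1). The fourth, an axonemal intermediate chain, lay at 1.35 CPM or less in every library.

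**Figure D3:**
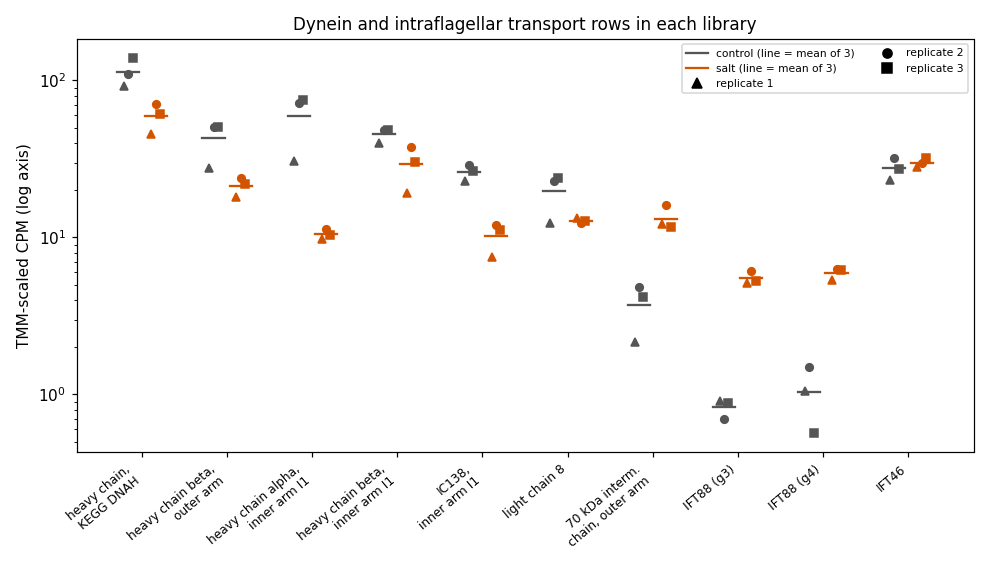
TMM-scaled CPM (y axis, log scale) of 10 dynein and intraflagellar transport rows (x axis) in the 3 control (grey) and 3 salt (orange) libraries, with lines at the means and shapes for the replicate number. The 4 heavy chains and IC138 are below all controls in each salt library, the 70 kDa intermediate chain and both IFT88 rows are higher, and control replicate 1 (triangles) is often the lowest control.

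Of 4 intraflagellar transport rows, 2 rose and 2 were not called. The rows that rose, TRINITY_DN5951_c2_g3 and TRINITY_DN5951_c2_g4, have the same best match, IFT88, a scaffold of the transport train, and lie in 1 Trinity cluster, so they may be pieces of 1 gene. The first stood at 0.911, 0.700 and 0.881 CPM in control and 5.13, 6.14 and 5.27 CPM in salt (log2 fold change 2.72 ± 0.28 SE, adjusted p = 0.000255 by edgeR). Its effective length was 481.9 bases in control and 942.8 in salt, and its FPKM went from 1.34 ± 0.546 to 6.05 ± 0.805. The second stood at 1.05, 1.4997 and 0.566 CPM in control and 5.36, 6.32 and 6.18 CPM in salt (2.50 ± 0.37 SE, adjusted p = 0.00132). The salt libraries were tight and several-fold above every control. The cluster, of which these rows held 4.23% and 4.68% of counts, changed by 0.60.

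IFT46 (TRINITY_DN4299_c1_g1), another train subunit, is on a joined row with an amine oxidase domain. It stood at 23.3, 32.3 and 27.2 CPM in control and 28.0, 29.8 and 31.9 CPM in salt, with overlap (log2 fold change 0.12 ± 0.15 SE, adjusted p = 0.549 by edgeR). The remaining row (TRINITY_DN4708_c3_g1) is named SMC1A, a chromosome cohesion protein, and was a member through an IFT57 domain on another frame. It stood at 17.7, 25.2 and 22.7 CPM in control and 26.3, 25.1 and 26.0 CPM in salt (0.24 ± 0.16 SE, adjusted p = 0.24).

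Kinesins were the largest role, with 26 rows, all tested. Of these 11 rose (42.3%), 5 fell (19.2%) and 10 were not called; the median log2 fold change was 0.34 (0.12 in the replicate 1 pair and 0.47 in replicates 2 and 3). They were divided by the known work of their families, a division made after the values were seen and therefore given without a test. Of 10 rows in families of the spindle and cell division by KEGG name (KIF15, KIF11, KIF2_24, KIF4_21_27, CENPE and KIFC1), 6 rose, 0 fell and 4 were not called. Their median was 0.86, with 0.69 in the replicate 1 pair and 0.87 in replicates 2 and 3. Raised were 60% and lowered 0% of the 10, beside 29.1% and 28.7% of all rows tested. The groups did not overlap for 4 of the 10. TRINITY_DN5695_c0_g2 and TRINITY_DN4911_c0_g6, which rose, are joined rows. The KEGG name KIF4_21_27 spans KIF4, KIF21 and KIF27 and does not tell them apart. The count of falls depends on the naming column. A row with no KEGG name whose Swissprot match is the chromosome-associated kinesin KIF4 (TRINITY_DN4671_c1_g1, described below) fell. With it 6 of 11 rose and 1 fell, and the median was 0.81. A calmodulin-binding kinesin of a type known in plants from division (TRINITY_DN5304_c0_g1, described below) also has no KEGG name. That row fell (-0.46, adjusted p = 0.0419 by edgeR) and is in neither count. The 4 rows not called had log2 fold changes from -0.26 to 0.16. Of 5 rows in ciliary families, 1 rose, 1 fell and 3 were not called, with a median of 0.20. These were rows with the KEGG names KIF3_17 or KIF6_9 and 1 row with a kinesin-II-associated domain. This count depends on the naming too. It leaves out a row named KIF3B by Swissprot (TRINITY_DN4761_c0_g2, -0.01, not called). That row's only Pfam domain is the phosphatase domain DSPc, so its place among the kinesins rests on the name alone. Also left out is a row that rose (TRINITY_DN4889_c0_g7, 1.04), which is KIF7 by KEGG name only. Swissprot names it kinesin-like protein 6 of the yeast Schizosaccharomyces pombe, so the 2 naming columns do not place it in the same family.

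Among the division families, the smallest p belonged to a row of the KIF4/21/27 family (TRINITY_DN5695_c0_g2), which includes chromosome-bound kinesins. It stood at 22.97, 26.2 and 20.8 CPM in control and 73.6, 85.4 and 82.4 CPM in salt (log2 fold change 1.79 ± 0.13 SE, adjusted p = 8.38e-05 by edgeR), on a joined row. KIF2A (TRINITY_DN3617_c0_g1), of the kinesins that take microtubules apart from their ends, stood at 36.9, 41.1 and 35.4 CPM in control and 65.4, 64.6 and 69.4 CPM in salt (0.81 ± 0.11 SE, adjusted p = 0.000898). KIF11 (TRINITY_DN4911_c0_g6), which slides spindle microtubules apart, stood at 84.9, 82.7 and 73.4 CPM in control and 153, 143 and 153 CPM in salt (0.90 ± 0.11 SE, adjusted p = 0.000458), on a row joined to a ribosomal protein L31 domain. In all 3 rows every salt library lay above every control.

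Of 3 rows named POK1 or POK2, after Arabidopsis kinesins that orient the division plane, 2 rose, with wider spread. The POK1 row that rose (TRINITY_DN3634_c0_g1) stood at 14.6, 23.5 and 15.0 CPM in control and 21.6, 43.1 and 52.1 CPM in salt, so that salt replicate 1 lay below control replicate 2 (log2 fold change 1.13 ± 0.35 SE, adjusted p = 0.0281 by edgeR). Leaving out control replicate 1 ended the call (0.063), as did control replicate 3 (0.0875), salt replicate 2 (0.0786) or salt replicate 3 (0.0912). The second POK1 row (TRINITY_DN5181_c3_g1), joined to ABC transporter domains and higher per length (48.2 ± 7.82 FPKM in control, against 10.2 ± 3.83 for the first, n = 3 each), was not called. It stood at 228, 166 and 145 CPM in control and 148, 167 and 194 CPM in salt, with overlap (-0.09 ± 0.19 SE, adjusted p = 0.727). POK2 (TRINITY_DN4279_c0_g1) stood at 13.9, 26.0 and 23.3 CPM and at 35.1, 60.5 and 53.3 CPM, without overlap (1.24 ± 0.29 SE, adjusted p = 0.00946). A CENPE-type row (TRINITY_DN5285_c2_g2), of the kinesins that act at kinetochores, stood at 9.88, 24.9 and 14.5 CPM and at 21.5, 39.9 and 47.2 CPM, with overlap (1.14 ± 0.41 SE, adjusted p = 0.0464). Its call was lost without control replicates 1 or 3 or salt replicates 2 or 3 (0.0855 to 0.139), and its cluster, of which it held 10.2%, changed by -1.24 (0.00131).

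Minus-end-directed kinesins of the KIFC2/3 family went in both directions. A row named KIFC3 (TRINITY_DN5103_c0_g2) rose from 64.3, 40.6 and 36.0 CPM in control to 186, 139.9 and 137 CPM in salt (log2 fold change 1.71 ± 0.25 SE, adjusted p = 0.00112 by edgeR). A second (TRINITY_DN4347_c0_g1) fell from 8.01, 16.4 and 18.6 CPM to 2.13, 2.40 and 2.26 CPM (-2.66 ± 0.35 SE, adjusted p = 0.000735). One more (TRINITY_DN3553_c0_g1) lay at 153, 106 and 91.7 CPM and at 147, 154 and 176 CPM and was not called (0.45 ± 0.20 SE, adjusted p = 0.096, 0.016 with library totals, 0.0305 with upper-quartile factors, and 0.69 with 0.00277 without control replicate 1).

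Among the ciliary families, the KIF6/9-type row (TRINITY_DN3595_c0_g1), a family of axonemal kinesins, had the deepest fall of the kinesins by counts. It stood at 14.0, 39.1 and 40.3 CPM in control and 3.04, 5.40 and 3.66 CPM in salt (log2 fold change -2.94 ± 0.45 SE, adjusted p = 0.00148 by edgeR), without overlap. Its effective length, which follows from the deposited counts and FPKM, was 2213.0 bases in control and 767.1 in salt, so the transcripts counted were not of 1 length. On FPKM the fall was smaller, from 14.7 ± 8.47 to 5.01 ± 2.99 (n = 3 each), and the groups overlapped. Per library the FPKM was 5.464, 22.149 and 16.381 in control and 1.787, 7.684 and 5.565 in salt. A row with the KAP domain of the kinesin-II-associated protein, which links the transport motor to its cargo, is named beta-mannosidase by Swissprot (TRINITY_DN5173_c1_g1). It stood at 69.0, 64.8 and 65.5 CPM in control and 78.9, 110.4 and 99.5 CPM in salt (0.53 ± 0.14 SE, adjusted p = 0.0156). Leaving out control replicates 2 or 3 or salt replicates 2 or 3 ended the call (0.0506 to 0.0553). FLA10 (TRINITY_DN6008_c4_g6), a kinesin-II motor subunit known from Chlamydomonas, stood at 11.99, 14.2 and 12.5 CPM and at 12.3, 17.7 and 14.1 CPM and was not called (0.19 ± 0.19 SE, adjusted p = 0.42). Its FPKM was 25.3 ± 20.1 in control and 5.77 ± 0.892 in salt (n = 3 each), with effective lengths of 434.3 and 2743.2 bases, so the means of counts and FPKM differ in direction for this row. Per library the FPKM was 4.13, 44.0 and 27.8 in control and 4.98, 6.74 and 5.58 in salt, so control replicate 1 lay below every salt library and the higher control mean came from control replicates 2 and 3.

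The kinesin row most abundant per length held a calmodulin-binding kinesin of the KCBP type (TRINITY_DN5304_c0_g1). That type is known in plants from trichome branching and division, and the row carries its MyTH4 and FERM domains. This is a joined row, so its level cannot be credited to the kinesin alone. It stood at 1106, 903 and 854 CPM in control and 722, 614 and 744 CPM in salt, on a row joined to a peptidase domain (log2 fold change -0.46 ± 0.16 SE, adjusted p = 0.0419 by edgeR). The groups did not overlap, but the call was lost with library totals as the scaling (0.118) and without control replicates 2 or 3 or any single salt library (0.0543 to 0.139). A row named KIF4 by Swissprot and Kif12 type by the non-redundant database (TRINITY_DN4671_c1_g1) fell from 73.6, 107 and 117 CPM to 29.4, 23.7 and 27.8 CPM (-1.88 ± 0.20 SE, adjusted p = 0.000304). The fifth kinesin that fell (TRINITY_DN4935_c1_g1), joined to an SBP domain of plant transcription factors, went from 218 ± 38.9 to 152 ± 22.8 CPM (-0.52 ± 0.17 SE, adjusted p = 0.0375, and 0.0713 with the replicate block). Its call was lost without each single library other than control replicate 2 (0.0612 to 0.101).

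Of the other rows that rose, an armadillo-repeat kinesin (TRINITY_DN3892_c0_g1), joined to a ribosomal protein L4 domain, stood at 53.5, 60.2 and 50.6 CPM in control and 158, 139 and 159.5 CPM in salt (log2 fold change 1.47 ± 0.12 SE, adjusted p = 0.000105 by edgeR). A KIF7-type row (TRINITY_DN4889_c0_g7), joined to NAD-binding domains, stood at 25.6, 40.9 and 35.0 CPM and at 70.1, 69.4 and 69.3 CPM (1.04 ± 0.18 SE, adjusted p = 0.00245), and its cluster changed by 0.16 (adjusted p = 0.27). A kinesin domain on a row named protein disulfide-isomerase (TRINITY_DN5533_c0_g1) went from 78.7 ± 7.01 to 111 ± 15.8 CPM (0.50 ± 0.14 SE, adjusted p = 0.0197). Leaving out control replicate 2 ended the call (0.0506), as did salt replicate 2 (0.0624) or salt replicate 3 (0.0609).

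**Figure D4:**
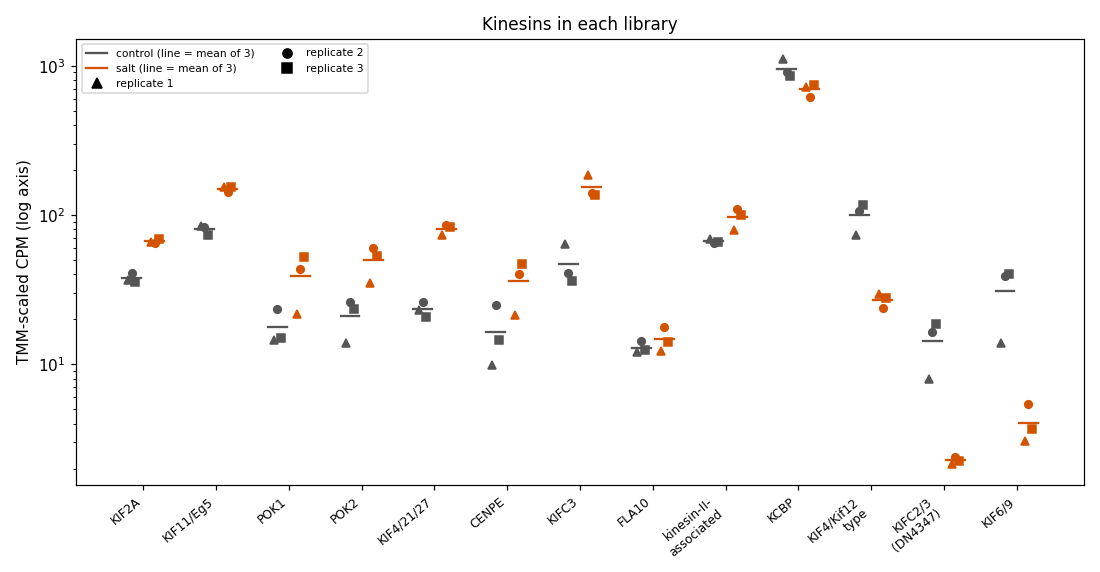
TMM-scaled CPM (y axis, log scale) of 13 kinesin rows (x axis) in the 3 control (grey) and 3 salt (orange) libraries, with lines at the means and shapes for the replicate number. KIF2A, KIF11 and the KIF4/21/27 row are higher in every salt library, the KIF4/Kif12-type row, 1 KIFC2/3 row (TRINITY_DN4347_c0_g1) and the KIF6/9 row are lower in every salt library, and FLA10 overlaps.

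Myosins, the actin motors, entered through the Myosin_head domain. All 3 were tested, and 2 rose and 1 was not called. The row named Myosin-2 (TRINITY_DN5048_c0_g3) was 5.42-fold higher in salt, at 6.04, 14.0 and 9.25 CPM in control and 37.2, 62.7 and 59.0 CPM in salt (log2 fold change 2.44 ± 0.35 SE, adjusted p = 0.00103 by edgeR). Its cluster changed by 1.24. The row named Myosin-52 (TRINITY_DN5486_c2_g3) rose from 44.8, 52.4 and 57.5 CPM to 131, 147 and 142 CPM (1.44 ± 0.13 SE, adjusted p = 0.000152), while its cluster, which includes rows of other names and of which it held 21.4%, changed by -0.21 (0.192). The most abundant per length, named Myosin-6 (TRINITY_DN5325_c0_g1), stood at 185, 177 and 176 CPM in control and 193, 234 and 222 CPM in salt (0.27 ± 0.11 SE, adjusted p = 0.0819). Without control replicate 1 its value was 0.30 (0.0484) and without salt replicate 1 it was 0.35 (0.0371).

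Of 16 rows named for other flagellar and ciliary parts, 12 were tested, and 2 rose, 4 fell and 6 were not called; the median log2 fold change was -0.33. The row nearest to SPAG6 (TRINITY_DN4657_c1_g1), a protein of the axoneme's central apparatus, was almost absent from control, with 0, 2 and 3 counts, and held 90, 62 and 80 counts in salt. The ratio of summed, scaled counts was 39.5 (exact binomial interval at 95%, 16.7 to 123, counting error only). The fitted log2 fold change was 5.18 (SE 0.66, adjusted p = 0.000628 by edgeR), and it was 4.58 without control replicate 1 and 5.98 without control replicate 3. The second rise was a row with several unrelated domains whose best matches are an Obg-like ATPase and a flagellar associated protein (TRINITY_DN5548_c1_g1), at 76.6, 98.8 and 91.8 CPM in control and 278, 211 and 241 CPM in salt (1.45 ± 0.15 SE, adjusted p = 0.000307).

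The deepest fall of all members was in a row named flagellar associated membrane protein (TRINITY_DN5942_c2_g1), after a Chlamydomonas protein, which carries PAS sensor domains. It stood at 242, 245 and 255 CPM in control and 9.81, 9.18 and 13.4 CPM in salt, a level 22.9-fold lower (log2 fold change -4.52 ± 0.18 SE, adjusted p = 1.84e-05 by edgeR). A neighbouring row of its cluster (TRINITY_DN5942_c2_g2) stood at 73.3, 76.5 and 72.5 CPM and at 23.8, 27.5 and 27.3 CPM (-1.50 ± 0.11 SE, adjusted p = 8.54e-05), and the cluster of both changed by -3.13. A row from another cluster of the same Trinity component (TRINITY_DN5942_c1_g1) stood at 59.2, 68.3 and 69.0 CPM and at 18.7, 21.9 and 18.5 CPM (-1.74 ± 0.13 SE, adjusted p = 8.54e-05). The other tested rows of that name did not pass. One overlapped between groups, and the other (TRINITY_DN5456_c1_g6) stood at 14.2 ± 0.978 CPM in control and 9.45 ± 2.37 CPM in salt (n = 3 each; -0.59 ± 0.23 SE, adjusted p = 0.0601 by edgeR, and 0.0379 with the replicate block).

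The fourth fall in this role was a row named coiled-coil protein CCDC147 (TRINITY_DN5260_c0_g2), with ribose-5-phosphate isomerase and Rab5-interacting domains on separate frames. It went from 164, 175 and 171 CPM in control to 109.9, 109 and 98.6 CPM in salt (log2 fold change -0.69 ± 0.10 SE, adjusted p = 0.00116 by edgeR). CCDC39 (TRINITY_DN4443_c0_g1), part of the ruler that sets the axoneme's repeat, lay at 5.37, 11.05 and 11.01 CPM and at 4.86, 6.87 and 4.79 CPM and was not called (-0.73 ± 0.33 SE, adjusted p = 0.10, and -0.99 with 0.00859 without control replicate 1). Its mean FPKM went the other way, from 3.56 ± 1.61 in control to 6.01 ± 4.82 in salt, with effective lengths of 2444.0 and 1836.2 bases. SPEF1 (TRINITY_DN4568_c0_g1), a microtubule-binding protein of the central pair, lay at 16.2, 12.6 and 14.2 CPM and at 16.98, 15.9 and 16.8 CPM and was not called (0.21 ± 0.15 SE, adjusted p = 0.283). One untested row of this role, a flagellar associated protein (TRINITY_DN1929_c0_g1), held 0 counts in each control library and 8, 8 and 11 counts in salt. Summed and scaled, it was at least 7.66-fold higher in salt, taking 3 counts over the control group as the floor.

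The members not tested were few in counts. Of the 9 in a role, 4 were tubulin rows, 1 a dynein heavy chain and 4 flagellar parts. The untested tubulin rows matched animals or a flowering plant and held 4 counts or fewer in every library, among them a row matching a frog with 2 counts in control replicate 2, 2 in salt replicate 2 and 4 in salt replicate 3. Across all 22972 rows, rows matching amphibians summed to 1957 counts in control replicate 2 and to 4 to 223 in the other libraries, and the part of such rows in these 4 tubulins was not tested.

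The rule read domains on every reading frame of a row, so rows holding several frames were more likely to be chosen, and their share among members is a description only. Of the 67 tested members in a role with a Pfam domain, 28 (41.8%) held domains on 2 or more reading frames, against 29.4% of all tested rows with Pfam. Effective length differed over 1.5-fold between groups for 5 of 70 members (7.14%), against 1.48% of all rows. Of the 45 called members in a role, 11 were the only row of their Trinity cluster, and 5 of the 45 had a cluster sum that was not called or had the other sign. Clusters can hold rows of other names, so a cluster sum is not the value of 1 gene. Among the 17 joined rows 7 rose and 5 fell, and among the other 55 tested rows 21 rose and 12 fell. Those 55 include 3 rows with domains of unrelated families on separate frames and no domain of a member family (TRINITY_DN5548_c1_g1, TRINITY_DN5260_c0_g2 and TRINITY_DN5882_c1_g1). The groups did not overlap for 47 of the 72 tested members in a role (65.3%), close to the 66.7% of all tested rows.

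**Figure D5:**
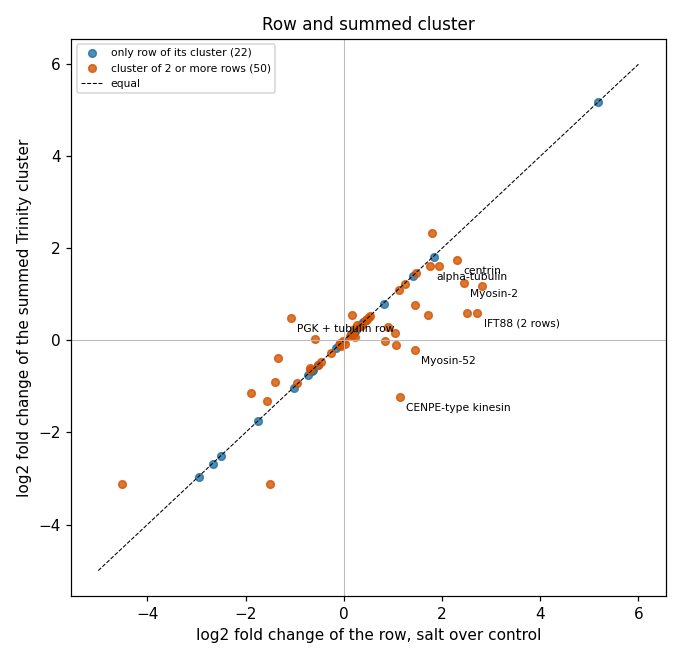
Log2 fold change in salt of each tested member's own row (x axis) and of its summed Trinity cluster (y axis), for 22 members alone in their cluster (blue) and 50 in clusters of 2 or more rows (orange), with a dashed line where both are equal. Rows off the line include Myosin-52, the CENPE-type kinesin and the phosphoglycerate kinase row with a tubulin domain, whose clusters changed in the other direction.

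Other genes of cilia, microtubules and actin were taken from 3 lists of description words and exclude the members. Of 4 cilium-linked rows, 2 were tested, and 0 rose and 1 fell: a radial spoke head 1-like row (TRINITY_DN3067_c0_g1), part of the spokes of the axoneme, averaged 37.4 ± 1.12 CPM in control libraries and 4.23 ± 0.946 CPM in salt libraries (SD, n = 3 each; log2 fold change -3.14 ± 0.19 SE, adjusted p = 4.19e-05 by edgeR). Of 20 microtubule-associated and spindle rows, 16 were tested, and 2 rose and 4 fell, with a median of 0.08. These are 12.5% and 25.0%, beside 29.1% and 28.7% of all rows tested. The kinetochore protein nuf2 (TRINITY_DN2702_c0_g1) rose from 5.12 ± 2.72 to 13.6 ± 2.26 CPM (1.41 ± 0.38 SE, adjusted p = 0.0176 by edgeR). MAD2A (TRINITY_DN5274_c2_g2) also rose (0.53 ± 0.15 SE, 0.0226). A row named cytokinesis protein sepA (TRINITY_DN5103_c0_g4) fell from 48.5 ± 10.2 to 17.8 ± 1.43 CPM (-1.44 ± 0.19 SE, adjusted p = 0.000663). It was listed through the word cytokinesis, and its alias FH1/2 is a formin name. Also lower were the kinase MPS1 (TRINITY_DN5984_c2_g1, -1.12 ± 0.18 SE, 0.00192), an abnormal spindle row (TRINITY_DN4528_c1_g2, -0.66 ± 0.11 SE, 0.00246) and a WASP homolog-associated row (TRINITY_DN5316_c0_g1, -0.69 ± 0.19 SE, 0.0182).

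Of 105 actin rows, 88 were tested, and 14 rose and 31 fell (15.9% and 35.2%, beside 29.1% and 28.7% of all rows tested). The share called was 51.1%, against 57.8% of all rows, and the median log2 fold change was -0.18. Rows named formin-like or PAN1 made up 61 of the 105, names that proline-rich sequences of unrelated proteins can attract. The list also holds chromatin regulators and phosphatases whose names contain the word actin. Rows named actin itself went in both directions. TRINITY_DN4755_c1_g2 rose from 313, 331 and 292 CPM to 833, 770.3 and 881 CPM (1.41 ± 0.13 SE, adjusted p = 0.000161 by edgeR). TRINITY_DN2706_c0_g1 also rose (0.8 ± 0.15 SE), and TRINITY_DN3759_c0_g1 fell (-2.0 ± 0.19 SE). A row named pan1 (TRINITY_DN5107_c4_g2), after a yeast endocytosis protein, rose from 15.4 ± 1.43 to 166 ± 30.1 CPM (n = 3 each; 3.43 ± 0.18 SE, adjusted p = 2.58e-05 by edgeR), and a formin-like row (TRINITY_DN5900_c0_g2), named for proteins that build actin filaments, fell from 533 ± 26.7 to 169 ± 22.2 CPM (-1.66 ± 0.14 SE, adjusted p = 0.000128).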

How the data were processed

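RNA was sequenced from 3 control and 3 salt samples; the series design names Illumina and the labels' library protocol a Proton procedure, and which applies is not settled here. The deposited table gives raw read counts and the authors' FPKM per library for assembled genes, with columns identified per the file headers; its deposited log2 fold change, p-value and FDR columns were not used for results. For the assembler, the aligner and the counter, names were not given in the sources used here; identifiers carry the Trinity prefix.

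Counts were tested with edgeR 4.0.16 in R 4.3.3: filterByExpr with a minimum count of 10, TMM factors, a quasi-likelihood fit on condition, and Benjamini-Hochberg adjustment over all 11438 rows tested, called at 0.05. SE is the size of the log2 fold change over the square root of F. Levels are TMM-scaled CPM, mean ± SD of 3 libraries; FPKM was used to compare levels between genes, and effective length was computed from counts and FPKM. At these depths a count of 0 allows 0.125 to 0.182 CPM per library, for counting error only. The fit was tested on simulated data.

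The members and lists were chosen with earlier results of these data known. In each role the text names the called members with the smallest p in each direction and the most abundant per length, every member of roles of 4 or fewer, and the 5 largest rises and falls without overlap at a mean CPM of at least 1; 27 further tested members, and the untested rows, were chosen after their values were seen. IFT names were read as Pfam names starting with IFT, and the tau-tubulin kinase was put with the tubulin modifiers. Organism names were searched in the non-redundant database description. The joined-row status was taken from the deposited Pfam hits.

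The labels share replicate numbers without saying what they mark. Same-numbered libraries deviated from their group means together (correlations across genes of 0.373, 0.161 and 0.22). The samples were therefore treated as paired by number in an alternative fit with the replicate block, although salt replicate 3 deviated more with control replicate 2 (0.293). Deviations from a group mean depend on each other within the group, so these correlations are not separate support for pairing by number. No 2 replicates were duplicates: chi-square per gene was 5.2 or more between any pair. The value of 5.2 was that of control replicates 2 and 3. Control replicate 1 stood at 173 from control replicate 2 and 147.3 from control replicate 3, and salt pairs at 33.4 to 58.5. Fits without control replicate 1, and those of replicates 2 and 3 alone, therefore have only this close pair as controls, and their adjusted p-values rest on its small spread. Alternatives were DESeq2 1.42.0, other scalings and filters, a term for the replicate 1 libraries, leaving out each library, summed Trinity clusters, a 2-fold minimum and other memberships; 2 memberships were added after the data were seen.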

Additional observations from a re-analysis of the deposited data

How the results depend on the processing

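Over all 96 members, counting rows matched by another name, 28 rose and 22 fell. A 2-fold minimum left 14 raised and 13 lowered, and the Pfam terms alone gave 16 and 10; both test or count fewer changes by construction. Leaving out 1 library gave 20 to 32 raised and 19 to 27 lowered. The replicate block gave 30 and 25; among members in a role it added 4 calls and removed 1, given beside those rows; 2 rows matched by another name also gained one, and no other member's call changed. Library totals gave 33 and 20 and moved the median of all rows to 0.20, upper-quartile factors gave 31 and 20 with a median of 0.11, and replicates 2 and 3 alone gave 36 and 30. Without joined rows the counts were 21 and 17, an alternative chosen after seeing the data. The count of all genes raised was 1017 and that of all genes lowered 1274 with a 2-fold minimum, and 1762 and 1738 with summed clusters, where fewer units were tested. With summed clusters the phosphoglycerate kinase row with a Tubulin domain (TRINITY_DN5250_c2_g1) had 0.48, ODA7 (TRINITY_DN5255_c2_g12) -0.11, the CENPE-type kinesin (TRINITY_DN5285_c2_g2) -1.24, Myosin-52 (TRINITY_DN5486_c2_g3) -0.21 and TRINITY_DN5456_c1_g6 0.03, each with the sign turned; clusters mix rows of several names, and the cause was not tested. The uncalled second POK1 row (TRINITY_DN5181_c3_g1, -0.09) also turned sign, with 0.12 under library totals, 0.02 under upper-quartile factors and 0.22 in replicates 2 and 3 alone, and ranged from -0.22 to 0.13 with 1 library left out. Of the 45 called members in a role, 33 kept their call under every alternative other than summed clusters and the 2-fold minimum. Over the 60 members tested and named, 54 values under an alternative lost the call, 41 gained it and 855 kept direction and call. With 3 libraries a group, depth limits rows near 1 CPM.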
